A study of Mus musculus with 93 samples.

Results

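The type IV collagen genes Col4a1, Col4a2, Col4a3, Col4a4, Col4a5 and Col4a6 encode the chains of the network-forming collagen of basement membranes. All 6 were found by their symbols among the 30235 genes of the deposited tables, and all 6 had enough reads to be tested in both tissues. The data are poly(A) RNA sequencing of 2 eye tissues of mice labelled female, the neural retina and the posterior eyecup, which is what is left of the eye without retina and lens. The mice were wild type (Efemp1+/+) or homozygous for a knock-in allele of Efemp1, the gene of fibulin-3 (Efemp1ki/ki), made to model an inherited macular disease, Doyne honeycomb retinal dystrophy. They were 3, 9 or 17 months old, and no treatment was given. Genotype, tissue and age made 12 groups and 93 libraries, with 8 in a group, apart from 6 wild-type eyecups at 3 months and 7 Efemp1ki/ki eyecups at 17 months. The labels do not say whether the libraries of a group were taken from separate mice, so a p-value here speaks only of how far libraries of a group spread, which may be technical.

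Type IV collagen chains fold into triple helices inside the cell, and the helices join at their ends into a sheet to which laminin, nidogen and perlecan attach. The α1 and α2 chains form the network found under most epithelia and around vessels. The α3, α4 and α5 chains form another, more crosslinked network in the kidney glomerulus, cochlea, lens capsule and parts of the eye, and its loss causes Alport syndrome, which can include retinal and lens changes. The α5 and α6 chains together form a further network, found in skin and smooth muscle. In the retina the chains lie in the inner limiting membrane and around vessels. In the tissue behind it they lie in Bruch's membrane, under the pigment epithelium, and around choroidal vessels and muscle.

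Each gene has its neighbour within a pair on the opposite strand, start to start, in the coordinates that the deposited tables give (GRCm38). Col4a1 lies at chr8:11198423-11312826 on the minus strand and Col4a2 at chr8:11312805-11449287 on the plus strand, so that their annotated first exons share 22 bases. Col4a4 lies at chr1:82448423-82586849 on the minus strand and Col4a3 at chr1:82586921-82722059 on the plus strand, with 71 bases between them. Col4a6 lies at chrX:141165403-141474076 on the minus strand and Col4a5 at chrX:141475385-141689234 on the plus strand, with 1308 bases between them. The stretches at these start sites are shown because the values of neighbours are compared below. They were read from RefSeq promoter windows of GRCm38.p6, which were found for 5 of the 6 genes, Col4a3 being the other. The first runs on the minus strand over chr8:11312801-11312830, with the bases shared by Col4a1 and Col4a2 in capitals. The second runs on the minus strand over chr1:82586840-82586930, with the bases between Col4a4 and Col4a3 in capitals.
Col4a1 and Col4a2: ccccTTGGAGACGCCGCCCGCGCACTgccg
Col4a4 and Col4a3: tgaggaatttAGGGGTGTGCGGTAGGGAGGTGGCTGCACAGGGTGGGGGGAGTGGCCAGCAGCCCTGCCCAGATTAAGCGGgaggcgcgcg

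The last pair is too far apart for a single stretch, so the bases before each start site are given. They cover chrX:141474077-141474326 on the minus strand for Col4a6 and chrX:141475169-141475384 on the plus strand for Col4a5. Capitals mark the letters of the motifs searched on both strands within these bases. The motifs were the GC box, with the letters GGGCGG, the CCAAT box, with the letters CCAAT, and the TATA box, with the letters TATAAA.
Col4a6: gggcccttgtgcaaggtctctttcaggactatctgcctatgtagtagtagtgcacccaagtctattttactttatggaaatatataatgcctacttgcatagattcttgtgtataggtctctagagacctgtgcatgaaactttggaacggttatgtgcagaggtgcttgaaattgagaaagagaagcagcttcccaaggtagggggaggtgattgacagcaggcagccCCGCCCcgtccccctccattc
Col4a5: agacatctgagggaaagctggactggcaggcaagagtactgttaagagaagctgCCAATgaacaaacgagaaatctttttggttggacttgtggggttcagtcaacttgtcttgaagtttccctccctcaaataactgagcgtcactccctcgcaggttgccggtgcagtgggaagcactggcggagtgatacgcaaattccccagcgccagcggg
Over whole windows of 300 bases (250 before and 50 after the start), the GC box was found 3 times at Col4a2, once each at Col4a1, Col4a5 and Col4a6, and not at Col4a4. It was present in 35.7% of the 32851 windows in the RefSeq set. The CCAAT box was found once each at Col4a1, Col4a2 and Col4a5 and is in 37.4% of all windows. The TATA box letters were in none of the 5 windows and are in 13.6% of all. A match is a match of letters only.

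Library totals were 14236127 to 35297627 estimated counts in the eyecup (median 19982911) and 9218127 to 37475492 in the retina (median 16813522). Eyecups varied far more than retinas, with a common coefficient of biological variation of 0.309 against 0.0963. The eyecup libraries held skeletal muscle, ocular surface epithelium and rods in varying amounts, as judged by summed markers. For example, the 10 rod markers summed to between 127 and 22089.7 TPM in eyecups against 50348.8 to 61524.4 TPM in retinas, and the 10 muscle markers summed to 3378 to 28844.4 TPM in eyecups against 11.2 to 20.6 TPM in retinas. None of the 9 pigment epithelium markers had a median under 0.1 TPM in any eyecup group. A total of 2 eyecups and 2 retinas stood apart from their groups in correlation over expressed genes. In these bulk samples, fewer cells of a type and less RNA per cell cannot be told apart.

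**Figure D1:**
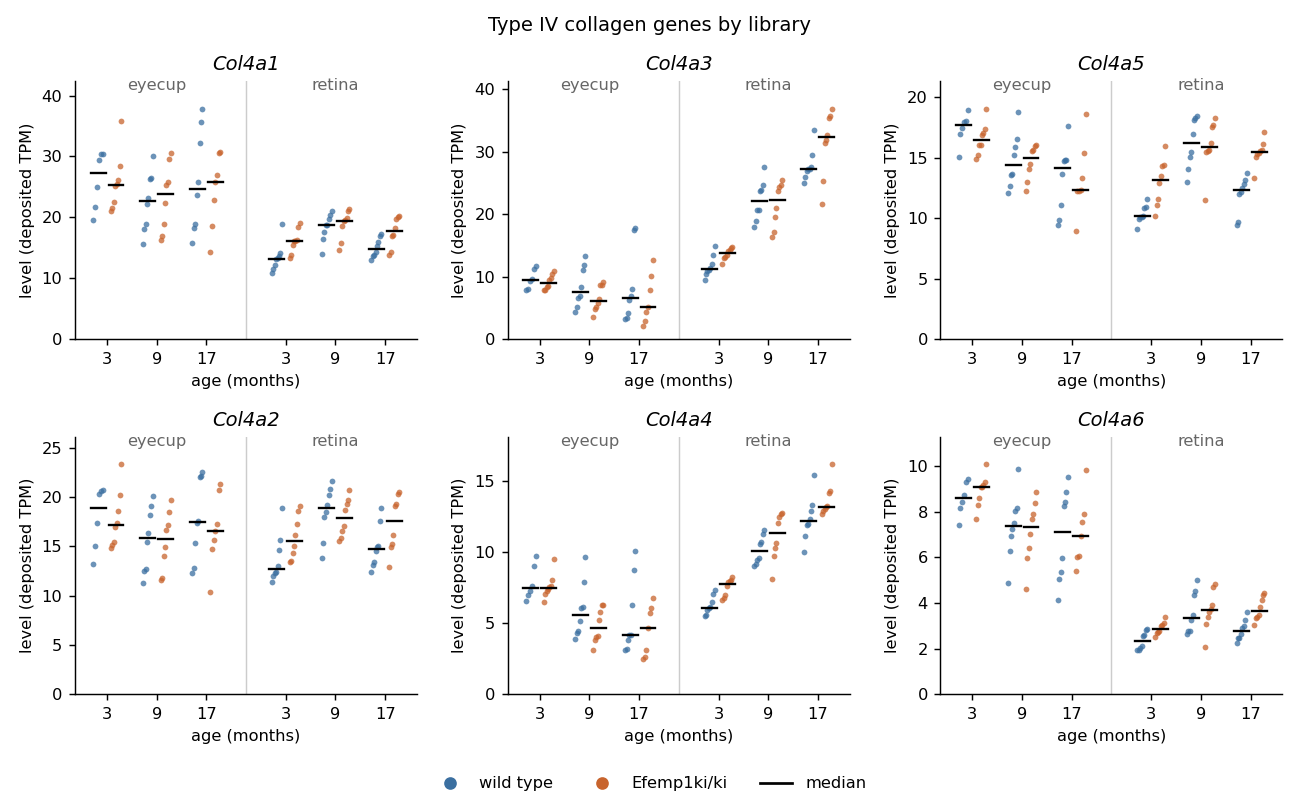
Level of each type IV collagen gene in every library (y axis, deposited TPM, from 0) against age (x axis, months), eyecups on the left of each panel and retinas on the right. Points are libraries and bars are group medians; Col4a3 and Col4a4 climbed with age in the retina, from medians of 11.2 and 6.10 TPM to 27.2 and 12.2 TPM in wild type, and did not climb in the eyecup.

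Levels were compared between genes as TPM, which is scaled by transcript length. In the eyecup the order over all 45 libraries was Col4a1 (median 25.2 TPM, range 14.2 to 37.9), Col4a2 (16.9 TPM, 10.4 to 23.3), Col4a5 (15.2 TPM, 8.92 to 19.1), Col4a3 (7.92 TPM, 2.03 to 17.8), Col4a6 (7.89 TPM, 4.12 to 10.1) and Col4a4 (6.17 TPM, 2.46 to 10.0). All neighbours in that order overlapped in range. In the retina, over 48 libraries, Col4a3 led (median 21.3 TPM, 9.44 to 36.9), then came Col4a1 (16.3 TPM, 10.9 to 21.4), Col4a2 (16.0 TPM, 11.4 to 21.7), Col4a5 (13.9 TPM, 9.15 to 18.5), Col4a4 (10.4 TPM, 5.53 to 16.2) and Col4a6 (3.05 TPM, 1.94 to 5.03). There Col4a6 lay below every other chain without overlap. The 6 genes together summed to a median of 86.9 TPM in wild-type eyecups at 3 months and 57.7 TPM in the matching retinas. At 17 months the same sums were 77.2 TPM in the eyecup and 87.5 TPM in the retina.

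The first comparison was between the tissues. Of the members, 4 were higher in the eyecup by edgeR's quasi-likelihood test with Benjamini-Hochberg adjustment over all genes, namely Col4a6, Col4a1, Col4a5 and Col4a2, and Col4a3 was higher in the retina. The 5 of 6 calls stand beside a background of 94.7% of 19210 genes called, and the 4 higher ones beside 47.7% called higher, so the counts themselves say nothing particular about the chains. The log2 difference (eyecup minus retina, mean of the 6 genotype and age groups) was 1.98 ± 0.06 (SE) for Col4a6, 1.32 ± 0.07 for Col4a1, 0.85 ± 0.03 for Col4a5, 0.76 ± 0.06 for Col4a2 and -0.68 ± 0.08 for Col4a3, with adjusted p from 1.6e-50 to 2.67e-13. Col4a4 did not pass, at -0.06 ± 0.05 (adjusted p = 0.287). The median over the members was 0.81, beside 0.0076 over all genes.

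These differences depend on how libraries of such different tissues are scaled. On the log2(TPM + 1) scale the median of all genes moved to -0.52 and with GC offsets to -0.35, and the split of calls moved from 9165 higher and 9025 lower to 6093 and 12434 on the TPM scale and to 7413 and 10812 with GC offsets. Relative to the median of all genes, Col4a6 stood at 1.57 and 1.74 under these scalings, Col4a1 at 1.05 and 1.03, Col4a5 at 0.63 and 0.71, Col4a2 at 0.55 and 0.65 and Col4a3 at -0.80 and -0.77, so that the order and directions of the members held. Col4a4 stood at -0.17 and -0.18 relative to that median, and before the median was taken off it was called lower under both, whereas Col4a2, at 0.03 on the TPM scale, was not called there (adjusted p = 0.516).

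Other basement membrane genes were mostly higher in the eyecup as well. This held for 10 of 11 laminin chains (list median 2.69), 12 of 14 further components, such as nidogens and perlecan (2.03), 12 of 12 receptors (2.44) and 15 of 18 tested genes that modify, fold or crosslink collagen (0.76). These counts stand beside 94.7% of all genes called and 47.7% called higher, and they were not recomputed under other scalings.

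The paired chains were then compared within each library, which removes the scaling of the library. It does not remove effects of GC content that differ between genes, and the ratios were not recomputed with GC offsets. With those offsets the tissue differences of Col4a1 and Col4a2 were 0.68 and 0.30, against 1.32 and 0.76 as reported. The ratio of Col4a1 to Col4a2 was higher in eyecups, and the ratios of Col4a3 to Col4a4 and of Col4a5 to Col4a6 were higher in retinas, in every genotype and age. All 18 comparisons (3 pairs in 6 groups) passed an exact two-sided permutation test of log2 ratios (pseudocount 0.01 TPM), with adjusted p from 0.000254 to 0.00133.

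In wild-type animals at 3 months the Col4a1 to Col4a2 ratio was 1.42 to 1.5 in eyecups (median 1.46, n = 6) and 0.899 to 1.09 in retinas (median 0.968, n = 8). The tissues did not overlap in any of the 6 groups. The difference in log2 ratio ran from 0.50 to 0.58 over the groups. The medians of the eyecup groups stayed between 1.46 and 1.49, and those of the retina groups between 0.968 and 1.01, at all ages and in both genotypes.

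The Col4a3 to Col4a4 ratio in wild-type animals at 3 months was 1.05 to 1.46 in eyecups (median 1.21) and 1.45 to 2.11 in retinas (median 1.91). The tissues overlapped here, in wild type at 9 months and in Efemp1ki/ki at 17 months, and did not overlap in the other 3 groups. In wild type at 9 months the highest eyecup stood at 2.125, close to the retina median of 2.16. The difference in log2 ratio ran from -0.82 to -0.56. Retinas therefore held more Col4a3 per Col4a4 transcript than eyecups did, the α3 and α4 chains being partners in the same helix.

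The Col4a5 to Col4a6 ratio was the one furthest apart between tissues. In wild-type animals at 3 months it was 1.82 to 2.14 in eyecups (median 2.04) and 3.59 to 5.52 in retinas (median 4.26), with no overlap in any group. The difference in log2 ratio ran from -1.25 to -1.09. Col4a6, the chain specific to the α5 and α6 network, was thus scarce relative to Col4a5 in the retina, where it stood at 1.94 to 2.84 TPM (median 2.35) in wild type at 3 months against 7.42 to 9.44 TPM (median 8.59) in eyecups.

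No pair ratio passed between genotypes in 18 exact permutation tests at 3 ages in 2 tissues, the smallest adjusted p being 0.192. In a test added after the values were seen, 17 months was set against 3 months in each tissue and genotype (12 tests). Of these, 1 passed, the Col4a3 to Col4a4 ratio in wild-type retinas, where the mean log2 ratio was 1.18 at 17 months and 0.89 at 3 months (exact permutation p = 0.000466, adjusted p = 0.00559). The ranges met, at 2.04 to 2.59 against 1.45 to 2.11. In Efemp1ki/ki retinas the same difference was 0.32 and did not pass (adjusted p = 0.0821), except without the libraries that stood apart, where it was 0.36 (adjusted p = 0.0448). The Col4a1 to Col4a2 and Col4a5 to Col4a6 ratios differed by -0.10 to 0.04 between these ages, and none of those passed.

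The second question was how the chains changed with age. In the retina Col4a3 and Col4a4 rose together. In wild-type retinas Col4a3 was 9.44 to 14.8 TPM at 3 months (median 11.2), 17.9 to 27.6 TPM at 9 months (median 22.1) and 25.0 to 33.4 TPM at 17 months (median 27.2). The 3-month libraries lay below all older ones, and the 9-month and 17-month ranges overlapped. In Efemp1ki/ki retinas it was 12.0 to 14.7 TPM (median 13.8), 16.4 to 25.5 TPM (median 22.3) and 21.7 to 36.9 TPM (median 32.3), again without overlap between the youngest and the others. The log2 fold change from 3 to 17 months was 1.22 ± 0.10 in wild type (edgeR, adjusted p = 4.46e-13) and 1.14 ± 0.10 in Efemp1ki/ki (adjusted p = 2.75e-12).

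Col4a4 in wild-type retinas was 5.53 to 7.37 TPM at 3 months (median 6.10), 8.99 to 11.5 TPM at 9 months (median 10.1) and 10.0 to 15.4 TPM at 17 months (median 12.2). In Efemp1ki/ki retinas it was 6.61 to 8.27 TPM (median 7.74), 8.08 to 12.7 TPM (median 11.3) and 12.7 to 16.2 TPM (median 13.2). The youngest and oldest libraries did not overlap in either genotype. The log2 fold change from 3 to 17 months was 0.94 ± 0.07 in wild type (edgeR, adjusted p = 9.02e-15) and 0.80 ± 0.07 in Efemp1ki/ki (adjusted p = 1.53e-12). The 2 genes share a start region, and a gene on the opposite strand that overlaps the end of Col4a3, C430014B12Rik, had a median estimated count of 8.99 at 3 months and 26.5 at 17 months in wild-type retinas. Its count is small beside those of Col4a3 (444 to 1349 and 1348 to 4951 in the same groups). The strand setting of the counting is not given in the sources used here.

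Some markers of cell types also moved with age. In wild type, 3 of 10 rod, 3 of 10 Mueller glia and 3 of 10 retinal neuron markers were lower at 17 months. These stand beside 17.8% of all genes called and 9.89% called higher. In Efemp1ki/ki 6 of 9 pigment epithelium markers were higher and 5 of 10 lens markers lower, beside 18.8% of genes called and 9.74% called higher. Counts for the same lists in the other genotype are not given here. With the pigment epithelium, lens and rod lists as covariates, the fold changes were 1.22 and 1.18 for Col4a3 and 0.95 and 0.85 for Col4a4 in wild type and Efemp1ki/ki, and all 4 still passed.

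Col4a3 and Col4a4 were the only members called from 3 to 17 months in wild-type retinas, beside 17.8% of 17240 genes called and 9.89% called higher. In Efemp1ki/ki retinas 3 members were called, all higher, beside 18.8% of genes called and 9.74% called higher, the third being Col4a5, at 0.21 ± 0.07 (adjusted p = 0.0356). In wild type Col4a5 stood at 0.19 ± 0.07 and did not pass (adjusted p = 0.0664), and the change did not differ between genotypes in a test of the difference itself (0.02 ± 0.10, adjusted p = 1). The Col4a5 call in Efemp1ki/ki ended under 4 of the alternatives, at 0.13 to 0.21. Col4a1, Col4a2 and Col4a6 lay between 0.15 and 0.33 in both genotypes and did not pass. The closest was Col4a6 in Efemp1ki/ki, at 0.33 ± 0.13 (adjusted p = 0.0561), which passed under 4 of 10 alternatives. The median of the 6 members was 0.23 in wild type and 0.27 in Efemp1ki/ki, beside -0.00247 and 0.00577 over all genes.

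The steps between neighbouring ages were tested over both genotypes, and both use the 9-month libraries. From 3 to 9 months all 6 members rose, beside 34% of genes called and 17.4% called higher. The log2 fold changes were 0.77 ± 0.07 for Col4a3, 0.61 ± 0.05 for Col4a4, 0.46 ± 0.05 for Col4a5, 0.44 ± 0.09 for Col4a6, 0.28 ± 0.06 for Col4a1 and 0.22 ± 0.07 for Col4a2, with adjusted p from 3.63e-13 to 0.00786. With marker lists of pigment epithelium, lens and rods as covariates, Col4a1 fell to 0.07 and Col4a2 to -0.02 and neither passed, while the other 4 did. Summed rod markers were lower at 9 months (medians of 52577.1 and 53157 TPM) than at 3 months (59402 and 57235 TPM), and their part in the result was not tested beyond that fit. From 9 to 17 months, beside 27% of genes called, Col4a3 rose again by 0.41 ± 0.07 and Col4a4 by 0.26 ± 0.05, whereas Col4a5 fell by 0.26 on the log2 scale (SE 0.05), with adjusted p of 2.47e-05, 8.85e-05 and 0.000164. Median Col4a5 at 3, 9 and 17 months was 10.2, 16.2 and 12.4 TPM in wild type and 13.2, 15.9 and 15.5 TPM in Efemp1ki/ki. Whether this step differed between the genotypes was not tested.

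The makeup of the family shifted accordingly. In wild-type retinas Col4a3 and Col4a4 made up 23.4% to 36.3% of the summed TPM of the 6 genes at 3 months (median 32.1%) and 43.6% to 53.3% at 17 months (median 46.5%), without overlap. In Efemp1ki/ki retinas the medians were 31.5% and 44.5%. Col4a1 and Col4a2 together went from a median of 45.4% to 35.5% in wild type. The 12 endothelial markers, which stand for vessels, summed to 215 to 235 TPM at 3 months and 210 to 233 TPM at 17 months in wild-type retinas. Of these markers 2 were called higher and 2 lower, beside 17.8% of genes called and 9.89% called higher.

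Other basement membrane genes moved less than Col4a3 and Col4a4 in the ageing retina. In wild type, where 17.8% of all genes were called and 9.89% called higher, 3 of 11 laminin chains were higher and none lower (list median 0.08), led by Lama3 at 0.51 and Lamc3 at 0.38. Of 14 further components 4 were higher and 2 lower (median 0.05). Col15a1, a collagen of the outer side of basement membranes, rose by 0.84 and Hspg2, encoding perlecan, by 0.55, whereas Sparc, a collagen-binding glycoprotein, fell by 0.44. Of the 18 tested genes that modify, fold or crosslink collagen, 4 were higher and 1 lower. The prolyl 4-hydroxylase subunits P4ha1 and P4ha2 rose by 0.21 and 0.27, and Pxdn, the peroxidasin that forms the sulfilimine bond of the network, by 0.19. Serpinh1, the collagen chaperone HSP47, fell by 0.32. Of 12 receptors, 2 were higher, among them the laminin receptor subunit Itga7 at 0.36, and 2 were lower, among them Itga6 at -0.41. In Efemp1ki/ki retinas Lama3 (0.60), Col15a1 (0.74), Hspg2 (0.41), Sparc (-0.38), P4ha2 (0.28), Itga7 (0.38) and Itga6 (-0.34) were called in the same directions. All values are log2 fold changes from 3 to 17 months.

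**Figure D2:**
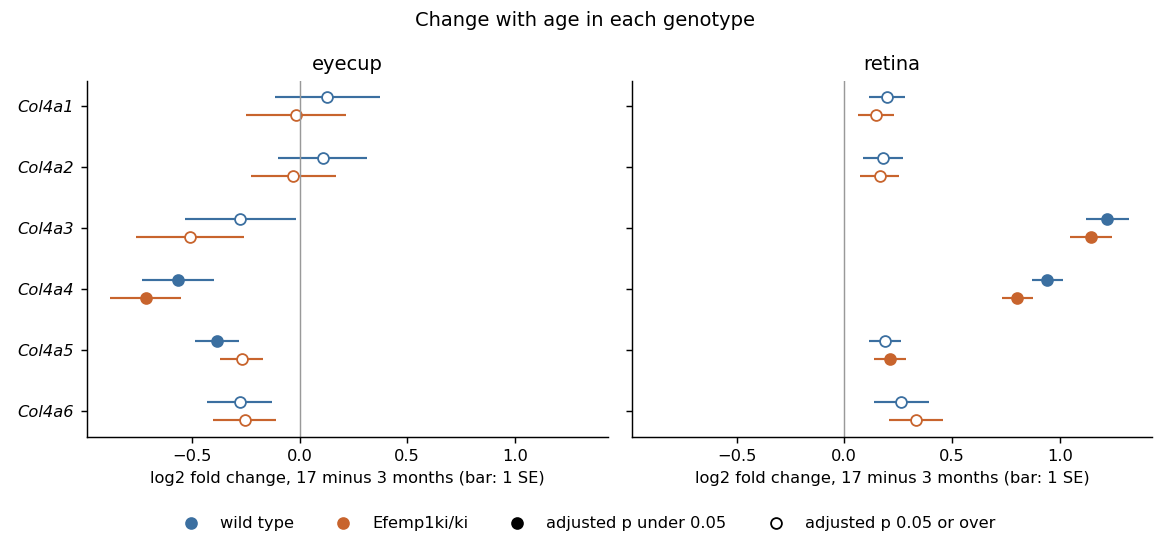
Log2 fold change from 3 to 17 months (x axis) for each gene (y axis) in eyecups and retinas, by genotype, with bars of 1 SE and filled points for an adjusted p under 0.05. Col4a3 and Col4a4 lie at 1.22 and 0.94 in wild-type retinas, and Col4a4 lies at -0.56 in wild-type eyecups.

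In the eyecup edgeR called no member higher from 3 to 17 months, and called Col4a4 lower in both genotypes and Col4a5 in wild type. Col4a4 was 6.54 to 9.74 TPM (median 7.45) in wild-type eyecups at 3 months and 3.13 to 10.0 TPM (median 4.17) at 17 months. The ranges overlapped, with 2 of the 17-month libraries above 8 TPM. In Efemp1ki/ki eyecups it was 6.52 to 9.54 TPM (median 7.45) and 2.46 to 6.81 TPM (median 4.64). The log2 fold change was -0.56 ± 0.17 in wild type (edgeR, adjusted p = 0.0392) and -0.71 ± 0.16 in Efemp1ki/ki (adjusted p = 0.00759). Col4a5 was 15.1 to 19.0 TPM (median 17.7) and 9.45 to 17.7 TPM (median 14.2) in wild type, a log2 fold change of -0.38 ± 0.10 (adjusted p = 0.0232). In Efemp1ki/ki it stood at -0.27 ± 0.10 and did not pass (adjusted p = 0.121). These are 2 of 6 members in wild type beside 5.88% of 18003 genes called (3.16% called lower), and 1 of 6 in Efemp1ki/ki beside 3.57%.

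From 3 to 9 months in eyecups, 1 of 6 members was called beside 12.7% of genes, Col4a4 at -0.51 ± 0.12 (adjusted p = 0.0044). From 9 to 17 months edgeR called none, beside 5.2% of genes and 1 member at an unadjusted p under 0.05, with 0 called by DESeq2 and 1 by limma voom. That member was Col4a2, which was higher at 17 months (0.30 ± 0.14, edgeR's unadjusted p = 0.0377 and adjusted p = 0.195). The wild-type calls were close to the threshold. Col4a4 did not pass under 4 alternatives (adjusted p up to 0.103), and Col4a5 did not pass under 2. With marker lists of muscle, ocular surface and rods as covariates it stood at -0.24 (adjusted p = 0.308), and with the replicate number as a block at -0.37 (adjusted p = 0.0775). Col4a3 spread widely, from 3.23 to 17.8 TPM in wild type and 2.03 to 12.7 TPM in Efemp1ki/ki at 17 months, and was not called by edgeR. The summed rod markers ranged from 398 to 20051.9 TPM and from 174 to 16584.5 TPM in the same groups. Their part in this result was not tested beyond the fit with marker lists as covariates, where Col4a3 was not called either, and the correlations given further on. Lens markers were lower at 17 months in wild-type eyecups (10 of 11, beside 3.16% of genes called lower), with sums of 9.96 to 21.3 TPM against 12.3 to 1020 TPM at 3 months. Summed pigment epithelium markers had medians of 1783 TPM at 17 months and 2617 TPM at 3 months in wild type, with none of 9 called, and of 1684 TPM and 2565 TPM in Efemp1ki/ki, with 1 called lower. The part of the lens and pigment epithelium lists in the falls of Col4a4 and Col4a5 was not tested.

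The change from 3 to 17 months differed between tissues for 4 of 6 members, beside 19.1% of genes called and 9.31% called lower. The eyecup minus retina difference in log2 fold change, as the mean of the genotypes, was -1.58 ± 0.19 for Col4a3 (edgeR, adjusted p = 1.37e-09), -1.52 ± 0.13 for Col4a4 (6.69e-16), -0.57 ± 0.14 for Col4a6 (0.00204) and -0.53 ± 0.09 for Col4a5 (3.34e-06). Col4a1 and Col4a2 stood at -0.11 ± 0.18 and -0.13 ± 0.16 and did not pass. The 4 calls held under every alternative run. Of 11 laminin chains 6 were also lower in this comparison, led by Lama3 at -0.94.

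The third question was the effect of the knock-in. In the eyecup, edgeR called 0 of 6 members at 3, 9 or 17 months or over all ages, beside 3.07%, 0.00555%, 0.0611% and 4.48% of genes. The counts were also 0 by DESeq2, by limma voom and by limma on the TPM scale, and 1 member, Col4a4 over all ages, had an unadjusted p under 0.05. The differences over all ages (Efemp1ki/ki minus wild type) ran from -0.25 ± 0.14 for Col4a3 to 0.09 ± 0.11 for Col4a2.

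In the retina Col4a5 was higher in Efemp1ki/ki at 3 and 17 months. It was 9.15 to 11.6 TPM (median 10.2) in wild type and 10.2 to 16.0 TPM (median 13.2) in Efemp1ki/ki at 3 months, and 9.45 to 13.8 TPM (median 12.4) against 13.4 to 17.1 TPM (median 15.5) at 17 months. The genotypes overlapped at both ages, over a narrow band at 17 months. The log2 fold change was 0.28 ± 0.07 at 3 months (edgeR, adjusted p = 0.0412), 1 of 6 members beside 1.83% of genes, and 0.30 ± 0.07 at 17 months (adjusted p = 0.0428), 1 of 6 beside 0.406%. At 9 months it was -0.03 ± 0.07, and none of the 6 was called, beside 0% of genes, with 0 at an unadjusted p under 0.05 and 0 by DESeq2. Over all ages Col4a5 (0.18 ± 0.04, adjusted p = 0.00804) and Col4a4 (0.13 ± 0.04, adjusted p = 0.0434) were called, beside 5.24% of genes. The genotype difference did not change between 3 and 17 months for any member in either tissue by edgeR or DESeq2, with 0 members at an unadjusted p under 0.05.

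Lens markers differed between the genotypes in the same retinas. The 12 lens markers summed to 4.85 to 83.4 TPM (median 6.13) in wild-type retinas at 3 months and 5.71 to 2739 TPM (median 33.3) in Efemp1ki/ki, with Cryaa, Crybb2, Crygs and Lim2 under 0.1 TPM at the median in wild type. Over all ages 9 of the 10 tested lens markers were higher in Efemp1ki/ki, beside 5.24% of genes called. With lens, pigment epithelium and rod lists as covariates, Col4a5 stood at 0.20 at 3 months (adjusted p = 0.467), 0.23 at 17 months (adjusted p = 0.131) and 0.13 over all ages (adjusted p = 0.11), and no genotype call on a member was left. Calls over all genes in that fit were 0 in place of 316 at 3 months and 226 in place of 903 over all ages. Within groups of retinas Col4a5 did not pass with the lens list (r = 0.176, rho 0.150, adjusted permutation p = 0.473 and 0.556). The part of the lens list alone was not tested. The genotype difference of Col4a4 differed between the tissues at the threshold (-0.34 ± 0.10, adjusted p = 0.047, 1 of 6 members beside 3.23% of genes), and 5 of 8 alternatives ended that call.

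The last comparison was between libraries of the same group. Log2 CPM was centred on the mean of each group, and each pair of members was correlated over the libraries of a tissue (30 correlations, 100000 permutations each). Neighbouring genes rose and fell together in both tissues. In eyecups Pearson r was 0.973 for Col4a1 with Col4a2 (Spearman rho 0.973), 0.876 for Col4a5 with Col4a6 (rho 0.871) and 0.859 for Col4a3 with Col4a4 (rho 0.809), each over 45 libraries with a permutation p of 1e-05, the smallest these permutations can give, and an adjusted p of 6e-05 (7.5e-05 for rho). Without the 2 libraries farthest from the median, r was 0.970, 0.859 and 0.818. The other 12 correlations lay between -0.27 and 0.162 in log2 CPM, and none passed on that scale. Their outcome depended on the scale. On log2(TPM + 0.1), an alternative scale, 6 of the 12 passed by Pearson r. Col4a5 there had r of 0.664 with Col4a4 (rho 0.675, adjusted permutation p = 4.29e-05 for both, r = 0.612 without 2) and 0.496 with Col4a3 (rho 0.524, adjusted permutation p = 0.00168 and 0.00075, r = 0.411 without 2). Col4a4 had r of 0.443 with Col4a6 (rho 0.479, adjusted permutation p = 0.00638 and 0.00316, r = 0.432 without 2). The 3 negative ones were Col4a1 with Col4a5 (r = -0.427, rho -0.448, adjusted permutation p = 0.0082 and 0.00542, r = -0.457 without 2), Col4a1 with Col4a6 (r = -0.387, rho -0.345, adjusted permutation p = 0.0172 and 0.0372, r = -0.465 without 2) and Col4a2 with Col4a5 (r = -0.326, rho -0.345, adjusted permutation p = 0.0472 and 0.0372, r = -0.35 without 2).

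In retinas the same pairs had r of 0.824 (Col4a1 with Col4a2, rho 0.814, permutation p = 1e-05), 0.539 (Col4a5 with Col4a6, rho 0.488, permutation p = 5e-05) and 0.523 (Col4a3 with Col4a4, rho 0.509, permutation p = 0.00016) over 48 libraries, with adjusted p of 6e-05, 0.00025 and 0.000686 for r and 7.5e-05, 0.0024 and 0.00135 for rho. Without the 2 farthest libraries r was 0.802, 0.450 and 0.519. Col4a5 also varied with Col4a1 (r = 0.614, rho 0.553, adjusted permutation p = 6e-05 and 0.0006, r = 0.588 without 2) and with Col4a2 (r = 0.451, rho 0.481, adjusted permutation p = 0.00506 and 0.0027, r = 0.446 without 2). Col4a4 with Col4a6 passed by rank only (r = 0.317, rho 0.354, adjusted permutation p = 0.0929 and 0.0456). These outcomes depended on the scale as well. On log2(TPM + 0.1) Col4a4 passed with Col4a6 (r = 0.404, rho 0.426, adjusted permutation p = 0.0102 and 0.00596). It also passed with Col4a1 (r = 0.353, rho 0.414, 0.0249 and 0.00788) and Col4a5 (r = 0.390, rho 0.450, 0.0137 and 0.00362). Col4a1 with Col4a6 passed there by r only (r = 0.324, rho 0.276, 0.0448 and 0.08). In log2 CPM Col4a3 was near 0 with every chain other than Col4a4, at -0.0909 to 0.0764. On log2(TPM + 0.1) it stood at 0.0734 to 0.205 with them, and none passed.

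**Figure D3:**
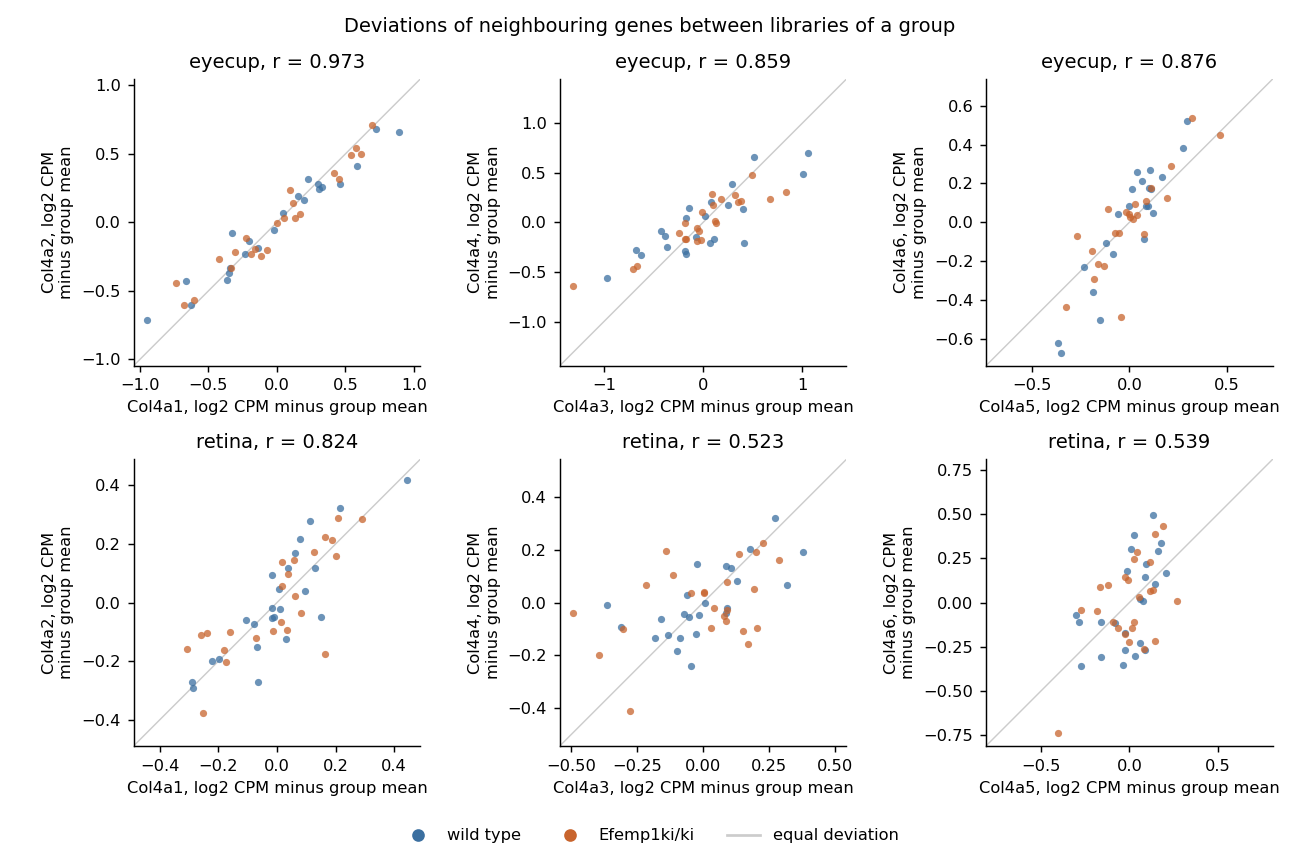
Deviation of each library from its group mean in log2 CPM for neighbouring genes, the first gene on the x axis and the second on the y axis, eyecups above and retinas below. Points are libraries coloured by genotype and the line marks equal deviation; the eyecup points lie along a narrow band (r = 0.973, 0.859 and 0.876) and the retina points scatter more (r = 0.824, 0.523 and 0.539).

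The deviations also followed cell type markers, most of all in the eyecup. In 144 correlations of members with the summed TPM of 12 marker lists, computed after the pattern had been seen, 31 passed in the eyecup and 11 in the retina by Pearson r. Col4a1 in eyecups had r of 0.933 with mural cell markers (rho 0.933), 0.915 with skeletal muscle markers (rho 0.928) and 0.897 with endothelial markers (rho 0.911), each with an adjusted permutation p of 0.000111 for r and 0.00012 for rho, and r of 0.921, 0.898 and 0.885 without the 2 farthest libraries. These lists also vary with each other. Col4a3 in eyecups had r of 0.809 with rod markers (rho 0.745) and 0.782 with retinal neuron markers (rho 0.723), with adjusted permutation p of 0.000111 for r and 0.00012 for rho, and r of 0.779 and 0.730 without 2. Col4a5 had r of -0.498 with rod markers (rho -0.589, adjusted permutation p = 0.00247 and 0.000411, r = -0.546 without 2). Col4a1 and Col4a2 passed negatively with ocular surface epithelium markers (r = -0.648 and -0.681). In retinas Col4a6 had r of 0.785 with fibroblast markers (rho 0.798, adjusted permutation p = 0.000111 and 0.00012, r = 0.793 without 2). It also passed there with melanocyte (0.576), Schwann cell (0.533) and Mueller glia markers (0.526). Retinal Col4a1 and Col4a2 passed with ocular surface epithelium markers (r = 0.6 and 0.639) and with rod markers (r = -0.403 and -0.493). Retinal Col4a5 passed with Schwann cell (0.411) and skeletal muscle markers (0.357), and Col4a2 with retinal neuron markers (0.395). Col4a3 and Col4a4 passed with none of the 12 lists there.

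**Figure D4:**
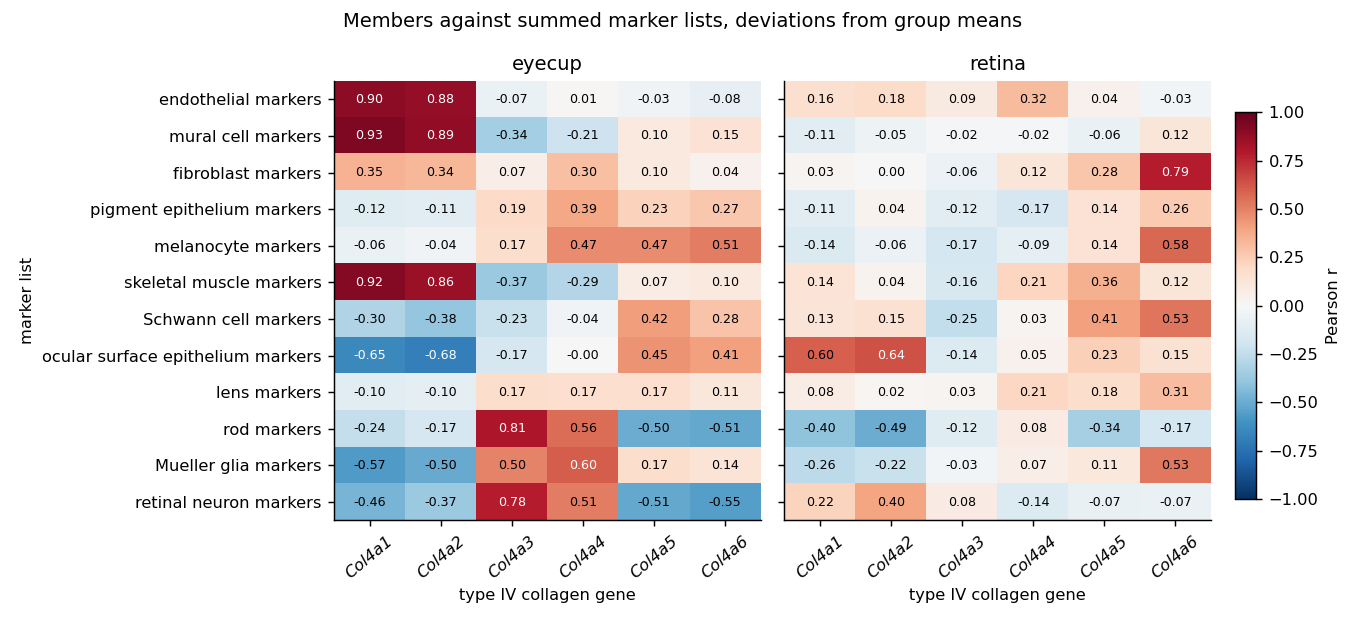
Pearson r between each type IV collagen gene (columns) and the summed TPM of each marker list (rows) over deviations from group means, eyecups left and retinas right, from -1 (blue) to 1 (red). In eyecups the columns fall into the same pairs as the genes, with Col4a1 at 0.933 with mural cell markers and Col4a3 at 0.809 with rod markers.

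In an alternative added after the data were seen, marker lists were removed by regression. The lists were skeletal muscle, ocular surface epithelium and rods in eyecups, and pigment epithelium, lens and rods in retinas. All 6 correlations of neighbours still passed. In eyecups they were 0.866, 0.847 and 0.808 for Col4a1 with Col4a2, Col4a3 with Col4a4 and Col4a5 with Col4a6, and in retinas 0.725, 0.523 and 0.483. Among genes that are not neighbours 6 passed then, 4 of them in eyecups. There Col4a4 had r of 0.674 (rho 0.613, adjusted permutation p = 5e-05 and 6e-05, r = 0.563 without 2) with Col4a5, its partner in the α3, α4 and α5 helix, against 0.162 before. With Col4a6, which is not in that helix, Col4a4 had r of 0.614 (rho 0.540, adjusted permutation p = 5e-05 and 0.0012, r = 0.501 without 2). Col4a3 had r of 0.511 with Col4a5 (rho 0.446, adjusted permutation p = 0.00139 and 0.0102, r = 0.489 without 2). With Col4a6 it had r of 0.467 (rho 0.372, adjusted permutation p = 0.00325 and 0.0314, r = 0.436 without 2).

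Among all expressed genes, the neighbour was the most similar gene for Col4a1, Col4a2, Col4a3 and Col4a4 in eyecups, out of 14135 ranked by Pearson r over 45 libraries. For Col4a5 and Col4a6 it was second, after Sned1, an extracellular matrix gene, at 0.888 and 0.878. The next genes after Col4a2 for Col4a1 were Pkdcc (0.942), Pecam1 (0.940), Col15a1 (0.939) and Asb2 (0.937), Pecam1 being an endothelial adhesion molecule. Those after Col4a4 for Col4a3 were Crb2 (0.855), Fam227a (0.852), Dpysl3 (0.848) and Wdr60 (0.847), Crb2 being a polarity gene of photoreceptors and Mueller glia. In retinas, out of 13328 genes over 48 libraries, Col4a2 was the most similar gene to Col4a1, and Col4a1 the fourth for Col4a2, after Rimbp2 (0.870), Col24a1 (0.847) and Miat (0.824). Col4a4 ranked 7 for Col4a3 and Col4a3 ranked 28 for Col4a4. The gene most like Col4a5 there was Pxdn, at 0.681. Col4a1, which is not its neighbour, ranked 9 for Col4a5 (0.614), above its neighbour Col4a6, which ranked 56 (0.539). Col4a5 ranked 151 for Col4a6. For Col4a6 the list was led by Klhdc7a (0.791) and included Nid2 (0.757), encoding nidogen-2. These ranks are descriptions, and genes are not independent replicates.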

How the data were processed

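Poly(A) RNA libraries were stranded, per the labels' protocols, and the submitters' processing notes name the build GRCm38.p4. For the aligner, the counter and its strand setting the entry is "not given in the sources used here". Values deposited as gene counts are estimated counts, 62.1% of them whole numbers, and were rounded before testing. Deposited TPM values add up to 1000000 over protein-coding genes alone and were treated as a score. In each file a single column (1 per file) matched no label and was not used. Groups came from titles.

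Genes kept by filterByExpr were fitted with edgeR 4.0.16 in R 4.3.3 (TMM, robust quasi-likelihood F test, group means), 1 fit per tissue and 1 of both. A gene was called when its p, adjusted by Benjamini-Hochberg, was under 0.05. Levels are given as the lowest, median and highest library, and errors of log2 fold changes are SE. Pair ratios used exact permutation tests and correlations 100000 permutations (scipy 1.17.1). The fits were tested on simulated data. Every test rests on the spread between libraries, not on counting error, since reads carry no molecular identifiers. The closest libraries of a group differed 2.29 times more than sampling noise (chi-square per degree of freedom), so none was counted as a copy.

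The members, lists and tests were chosen with earlier results of these data known. Lists covered laminins, other components, modifying enzymes, receptors and 12 cell types. All members are named, with up to 4 called genes a list and direction and the 5 genes most like each member. Alternatives were RLE size factors, no filter, only the groups compared, a replicate block, limma 3.58.1 (voom, and log2(TPM + 1)), DESeq2 1.42.0, marker list covariates, GC offsets (99.6% of genes had a GC content) and leaving out the libraries that stood apart by more than 3 scaled median absolute deviations.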

Additional observations from a re-analysis of the deposited data

Results flagged for a closer look

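In 3 of 72 combinations of member and group, 1 library lay far from the others by Dixon's criterion, and chance flags about 1 in 20 groups, or 3.6 of 72. Col4a1 stood at 18.8 TPM in the wild-type retina of replicate 7 at 3 months, the next library being at 14.1 TPM. Col4a4 stood at 16.2 TPM in the Efemp1ki/ki retina of replicate 5 at 17 months, the next being at 14.3 TPM. Col4a5 stood at 11.5 TPM in the Efemp1ki/ki retina of replicate 7 at 9 months, the next being at 15.5 TPM.

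Changes that differed between the tissues, by edgeR's test of the difference itself (log2, eyecup minus retina), were those with age of Col4a3 (-1.58, adjusted p = 1.37e-09), Col4a4 (-1.52, adjusted p = 6.69e-16), Col4a5 (-0.53, adjusted p = 3.34e-06) and Col4a6 (-0.57, adjusted p = 0.00204). The genotype difference of Col4a4 differed by -0.34 (adjusted p = 0.047).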

How the results depend on the processing

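Of 380 recomputed values of 58 called differences, ratios and correlations, 350 kept direction and side of the threshold, 29 no longer passed and 1 reversed, Col4a2 from 3 to 9 months in the retina, at -0.0228 with marker covariates. Of 916 recomputed values of 94 uncalled differences, 59 changed sign and 34 passed. The causes were not tested. Counts of members called that moved by over 1.5 times were these. In wild-type eyecups from 3 to 17 months, 1 in place of 2 was called with RLE size factors, no filter, only the groups compared, the replicate block or limma on TPM. In Efemp1ki/ki eyecups voom called 2 and covariates 3 in place of 1. Over 10 alternatives there, Col4a1 ran from -0.41 to 0.19, Col4a2 from -0.36 to 0.16 and Col4a3 from -0.74 to -0.49, each called under 1. In wild-type eyecups Col4a1, at 0.13 as reported, ran from -0.40 to 0.16, changed sign under 2 and was called under 1. The values of Col4a1 and Col4a2 in ageing eyecups thus depended on the alternative used. The alternatives include the fit with muscle, ocular surface and rod lists as covariates as well as changes of processing. In eyecups from 3 to 9 months only the groups compared called 3, voom 4, DESeq2 2, covariates 4 and the fit without the libraries that stood apart 2, in place of 1, and from 9 to 17 months voom called 1 in place of 0. For genotype in the retina at 3 months no filter and covariates called 0, and only the groups compared and voom 2, in place of 1. At 17 months no filter, only the groups compared, voom, covariates and the fit without the libraries that stood apart called 0 in place of 1, and over all ages no filter called 1, the replicate block 1, voom 4, limma on TPM 4 and covariates 0 in place of 2. In wild-type retinas from 3 to 17 months voom called 4 in place of 2. Smaller moves include 4 in place of 3 in Efemp1ki/ki retinas by DESeq2, voom and limma on TPM. For the tissue by genotype difference RLE, no filter, limma on TPM, the fit without the libraries that stood apart and GC offsets called 0 in place of 1. Among correlations of genes that are not neighbours, 12 passed on log2(TPM + 0.1) and 6 with covariates, in place of 2. The 17 against 3 month ratio tests that passed were 2 in place of 1 without the libraries that stood apart.

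Replicate numbers were not used to pair samples in the main fits. Correlations of same-numbered samples of the 2 genotypes, within a tissue and age, ran from -0.538 to 0.71. Between retinas and eyecups of 1 genotype and age they ran from -0.119 to 0.155 over 41 pairs, with 6 over 0.1. Of the 41 retinas, 13 correlated best with the eyecup of their own number, among the 6 to 8 eyecups of a group. These were 5 of 7 in Efemp1ki/ki at 3 months and 4 of 8 in wild type at 17 months, against 0 to 3 in the other groups. The labels do not say whether same-numbered retinas and eyecups share an eye, and a pairing of the tissues was not tested further. Tests between tissues treat these as separate samples. With the replicate block, 1 member was called in wild-type eyecups from 3 to 17 months (Col4a4) and 1 in the retina by genotype over all ages (Col4a5).

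Calls over all genes ranged over the alternatives from 398 to 2622 (1059 as reported) and 304 to 2286 (643) in wild-type and Efemp1ki/ki eyecups from 3 to 17 months, 533 to 4092 (2288) from 3 to 9 and 369 to 4376 (936) from 9 to 17 months, and 10 to 2359 (553), 0 to 478 (11) and 34 to 1585 (807) for genotype at 3 and 17 months and over all ages. In retinas they ranged from 2257 to 4721 (3071), 2234 to 4006 (3233), 2120 to 7143 (5865) and 3155 to 4846 (4662) for the same ages, and 0 to 1927 (316), 1 to 682 (70) and 226 to 2008 (903) for genotype. Tissue by genotype gave 25 to 1075 (620). Covariates were not fitted to both tissues together, and comparisons that use every group have no fit of only the groups compared. The spread between eyecups limits what can be seen there.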
